A study of Mus musculus with 6 samples.

Results

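The cell cycle genes described here are 3 D-type cyclins (Ccnd1, Ccnd2 and Ccnd3), 4 genes of the later cycle (Ccna2, Ccnb1, Cdk1 and Mki67) and 3 replication genes (Mcm2, Mcm5 and Pcna). They are followed in the pancreas of mice lacking Cftr, an anion channel of epithelia whose loss causes cystic fibrosis. Members were taken as every probe set, the group of short oligonucleotides that together read a transcript, that the array's annotation assigns to 1 of these 10 gene symbols. That gave 12 of the 12488 probe sets, for 9 of the 10 genes, and no value is given for Ccnb1. Of the 12 probe sets, 9, for 7 genes, were bright enough to be tested, meaning that at least 3 of 6 arrays exceeded an intensity of 140.2. The tested set therefore does not stand for all members.

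The data are 6 one-colour arrays of total RNA from the pancreas, each from 1 male mouse. The control mice were CFTR+/+ and aged 57, 56 and 57 days in replicates 1, 2 and 3, and the mice called CF were CFTR-/- and aged 57, 56 and 58 days. All 6 were gastrin+/-, so controls also carried a single working gastrin allele, on a background of 95% black6 and 5% 129Sv, and ate Peptamen from day 10 against gut obstruction. The Cftr allele itself is not described in the labels, and only control replicate 1 is labelled as the entire pancreas. Replicate numbers follow the title suffixes (none, B and P), which the controls and CF mice share.

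Array medians were 207.8 to 234.4, and 7739 probe sets were tested, of which limma called 5 at an adjusted p under 0.05. That count was 1 without CF replicate 1 or without CF replicate 2, 8 without CF replicate 3 and 11 without control replicate 2. Acinar cell markers were present as the tissue label says, with 13 of 14 on the array bright enough to test. The testable Cftr probe set measured 318, 223 and 338.5 in controls and 466.9, 313.8 and 364.2 in CF. Its place relative to the disruption is unknown here, so it checks nothing. Throughout, 3 arrays per group limit the precision.

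Cells enter the cycle when D-type cyclins bind CDK4 or CDK6 and phosphorylate the retinoblastoma protein, which releases E2F transcription factors. E2F targets include cyclin E, cyclin A and the proteins that license and copy DNA. The MCM proteins form the ring-shaped helicase loaded at origins, and PCNA is the sliding clamp that holds polymerases on the template. Cyclin A2 and CDK1 act in S phase and at the entry to mitosis, with cyclin B1, and Ki-67 coats mitotic chromosomes and is the common stain for cycling cells. Few cells of the healthy adult pancreas divide, and the exocrine acinar cells make up most of the gland.

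The promoters of Mcm2 and Mcm5 are shown because Mcm2 and the brighter Mcm5 probe set put the 6 arrays in the same order. Of all pairs of tested member probe sets, this one had the highest correlation of log2 values (r = 0.97). The other pairs ran down to r = -0.58. Each line gives the bases from 200 to 51 before the annotated start, from RefSeq on GRCm38.p6, at chr6:88898831-88898980 on the minus strand for Mcm2 and chr8:75109309-75109458 on the plus strand for Mcm5. Both are printed on the gene's strand, 5′ to 3′, with matches to the searched motifs in capitals. The start used is the edge of the RefSeq gene for Mcm2 but not for Mcm5.
Mcm2: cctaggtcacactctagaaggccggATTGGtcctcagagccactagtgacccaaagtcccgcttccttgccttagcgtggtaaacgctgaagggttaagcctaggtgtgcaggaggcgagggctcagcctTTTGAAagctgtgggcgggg
Mcm5: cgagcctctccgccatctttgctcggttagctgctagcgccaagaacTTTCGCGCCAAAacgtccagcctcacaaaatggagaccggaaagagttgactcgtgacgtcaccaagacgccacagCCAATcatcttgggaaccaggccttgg

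The motifs searched, on both strands of the 250 bases before the start, were E2F (TTTCCCGC, TTTCGCGC, TTTGCCGC or TTTGGCGC), CHR (TTTGAA), an element of mitotic promoters, and the CCAAT box (CCAAT). In Mcm5 the capitals from base -153 to -142 are an E2F match on each strand that overlap by 4 bases, and the second run is a CCAAT box. Another Mcm5 CCAAT box, from -22 to -18, lies outside the bases shown. In Mcm2 the capitals are a reversed CCAAT box from -175 to -171 and a CHR from -70 to -65, with 0 matches to these E2F letters. RefSeq promoters were at hand for 7 of the 10 genes (8 promoters, since Ccnd3 has 2). An E2F match occurred in 2 of the 8 promoters, those of Mcm5 and Cdk1, against 1.86% of 32851 promoters. A CHR occurred in 3 (Cdk1, Mki67 and Mcm2), against 16.0%, and a CCAAT box in 7, all but 1 of those of Ccnd3, against 33.8%. These matches describe the letters only.

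In the CF pancreas none of the tested cyclin and replication probe sets passed the test: limma called 0 of 9 at an adjusted p under 0.05, against 0.0646% of all tested probe sets (5 of 7739). At an unadjusted p under 0.05 there were 2 of 9, against 7.38% of all. Both belong to D-type cyclins, Ccnd3 and 1 of the Ccnd1 probe sets, whose 3 CF values all lay below the 3 control values. All tested probe sets lay below without overlap in 5.62% of cases and above in 7.37%, and of the members 2 lay below and 0 above. By sign, 4 of the 9 were lower in CF and 5 higher, with a median log2 difference (CF minus control) of 0.06, beside 0.00 over all tested probe sets. That median turned negative without any 1 of 5 arrays, down to -0.27 without CF replicate 2. With the title suffix as a replicate block, the count stayed at 0 of 9, while 0.129% of all tested probe sets were called (10 of 7739).

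**Figure D1:**
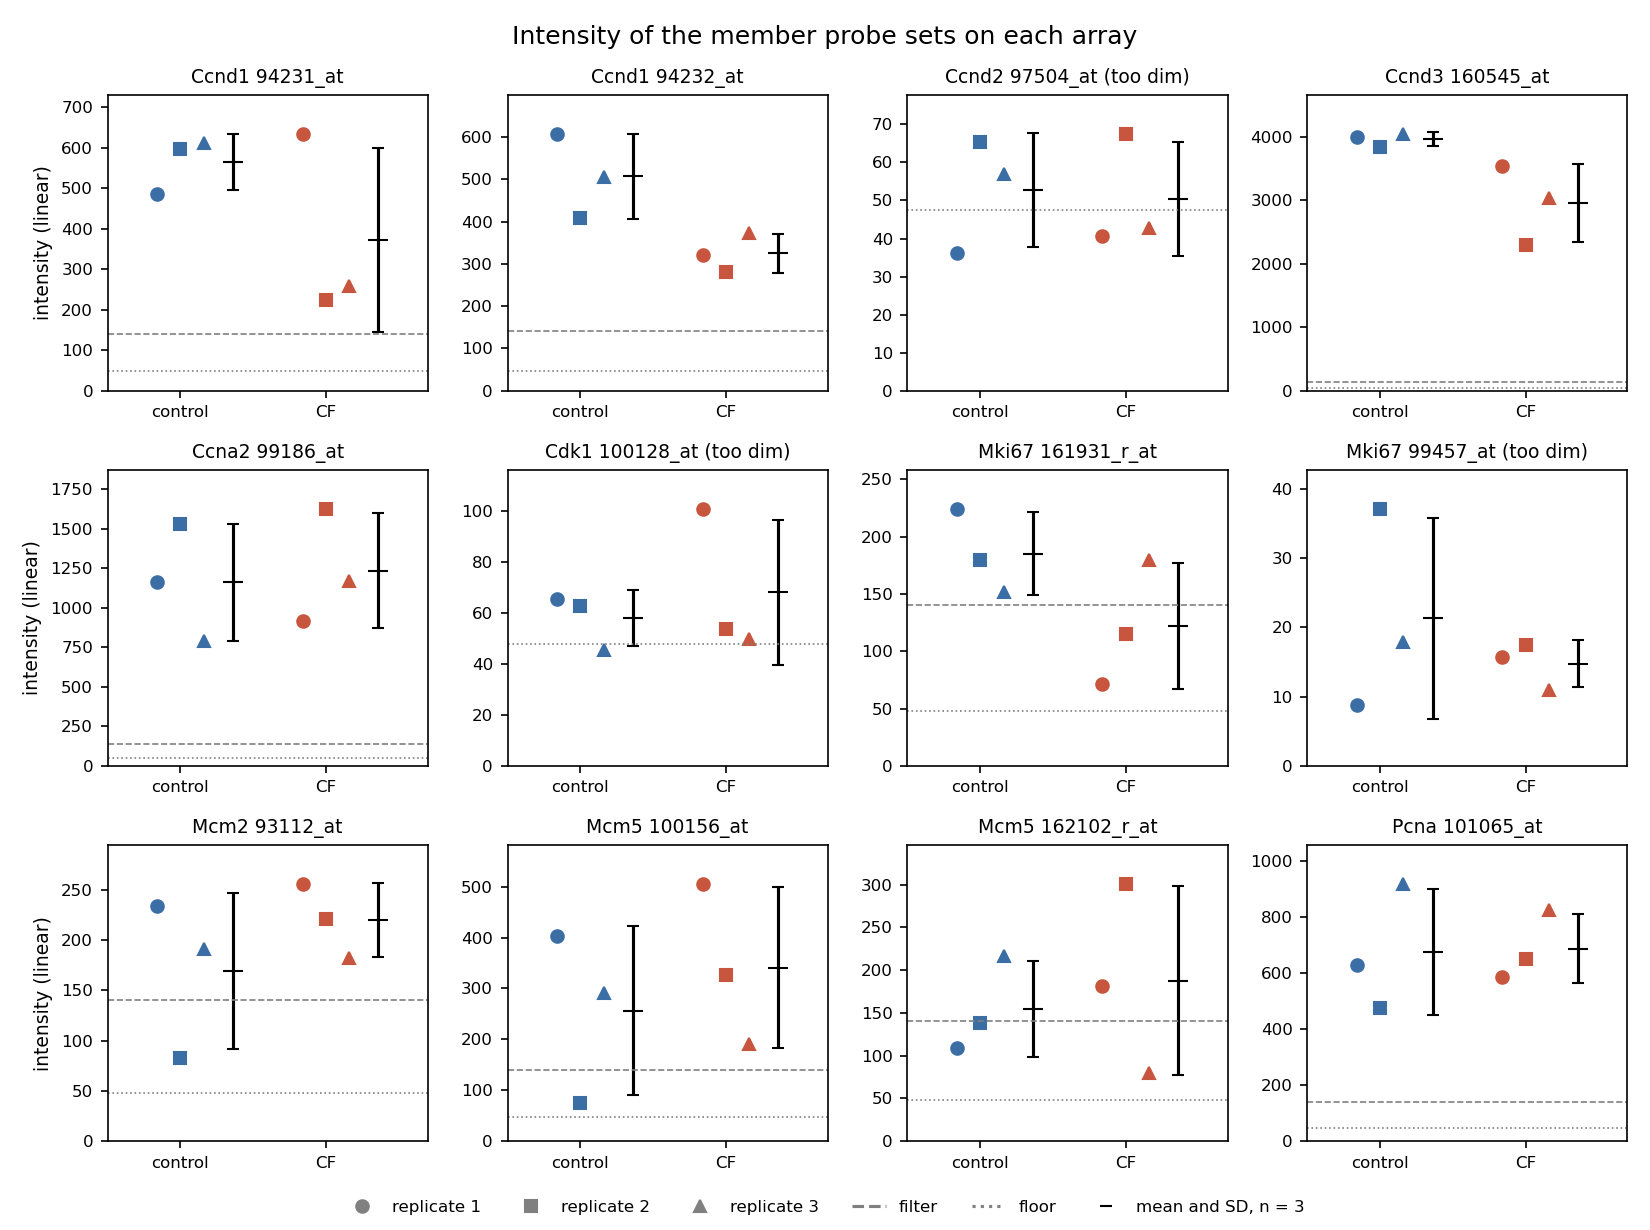
Intensity (linear axis from 0) of the 12 member probe sets on each array, control in blue and CF in red, with symbols for replicates 1 to 3, and the group mean and SD (n = 3) in black; dashed lines mark the filter at 140.2 and dotted lines the floor at 47.6 where they fall in the panel. Ccnd3 and 1 Ccnd1 probe set have all CF values under all control values, and the Ccnd2, Cdk1 and second Mki67 panels lie wholly under the filter.

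Cyclin D3, encoded by Ccnd3, is a partner of CDK4 and CDK6 in G1. Its probe set (160545_at) measured 4003, 3832 and 4050 in controls (replicates 1, 2 and 3) and 3532, 2301 and 3036 in CF. The control values lay close together, the CF values were spread more widely, and the groups did not overlap. Means were 3962 ± 115 in controls and 2956 ± 619 in CF (SD, n = 3), a log2 difference of -0.44 ± 0.18 SE (95% interval -0.85 to -0.03, limma adjusted p = 0.66). CF was lower in each same-suffix pair, by log2 differences of -0.18, -0.74 and -0.42. CF replicate 2 was the lowest array, and without it the difference was -0.27.

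Ccnd1 encodes cyclin D1, the D-type cyclin most closely tied to growth factor signals, and has 2 probe sets. The first (94232_at) measured 608.6, 407.9 and 505 in controls and 321.9, 281.3 and 372.4 in CF, so that the lowest control lay above the highest CF value. Means were 507 ± 100 and 325 ± 45.6 (SD, n = 3), a log2 difference of -0.63 ± 0.26 SE (95% interval -1.22 to -0.05, limma adjusted p = 0.66). All 3 same-suffix pairs were lower in CF, by -0.92, -0.54 and -0.44.

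The second and brighter Ccnd1 probe set (94231_at) measured 485.2, 597.5 and 612.7 in controls and 635.2, 222.7 and 259.2 in CF. Here CF replicate 1 was the highest of all arrays while the remaining CF values were the lowest, and the groups overlapped. The log2 difference was -0.76 ± 0.39 SE (95% interval -1.65 to 0.13, limma adjusted p = 0.72), and it was -1.23 without CF replicate 1 and -0.47 without CF replicate 2. The probe sets of this gene thus share the sign and disagree on CF replicate 1, and over the 6 arrays they correlated at r = 0.48.

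Ccnd2, for the third D-type cyclin, was too dim to test (97504_at). It measured 36.2, 65.3 and 57 in controls and 40.7, 67.6 and 42.7 in CF, with 0 of 6 arrays above the filter and 3 below the floor. At this brightness no difference was detectable. The D-type cyclins are related in sequence, and how far a probe set of one reads the others was not measured.

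Over the 6 arrays the log2 values of Ccnd3 correlated with the first Ccnd1 probe set at r = 0.80 (Spearman's rho 0.89). Without CF replicates 2 and 3, the arrays farthest from the Ccnd3 median, r was 0.92 over 4 arrays. With the second Ccnd1 probe set r was 0.88 (rho 0.60) and turned to -0.54 without those arrays, so that relation rests on them. Among 6900 other named probe sets, 308 followed Ccnd3 more closely than the first Ccnd1 probe set did. These correlations include the group difference and are descriptions.

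**Figure D2:**
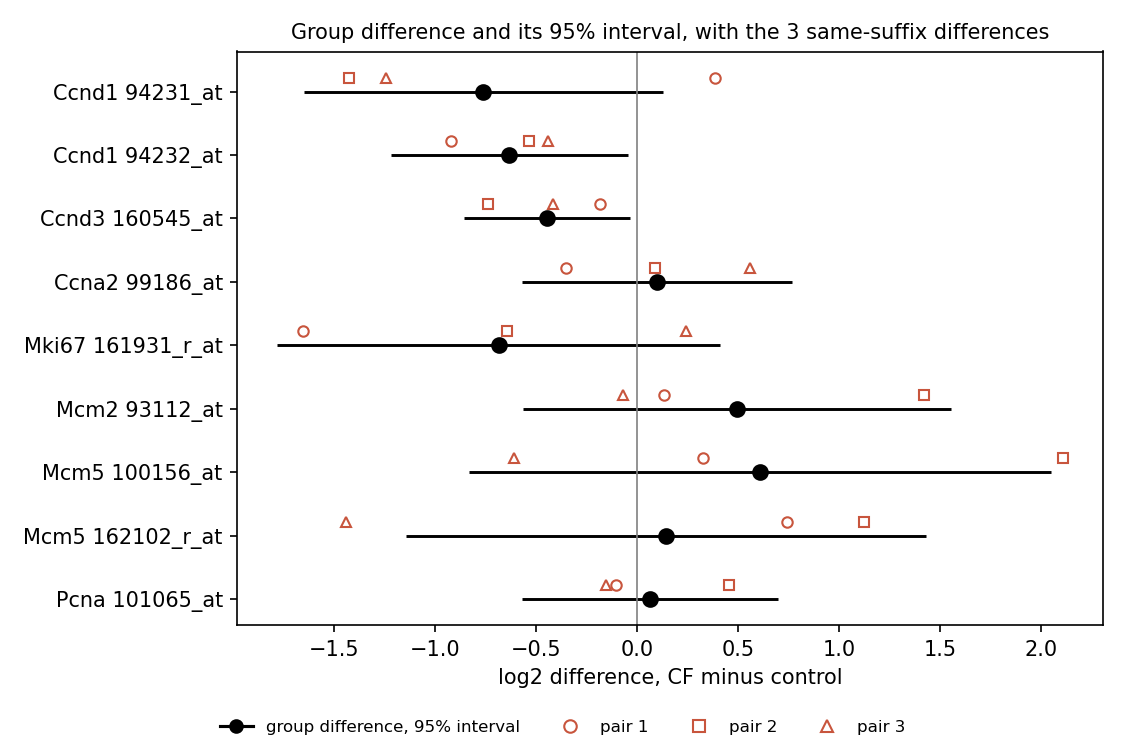
Log2 difference, CF minus control, of the 9 tested member probe sets (black points) with its 95% interval from limma (lines), and the difference within each same-suffix pair of arrays (open red symbols). The intervals of Ccnd3 and of Ccnd1 94232_at end just under 0, at -0.03 and -0.05, while the other 7 include 0.

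Markers of other pancreatic cells, each read from 1 probe set per gene, are given beside the D-type cyclins as log2 differences. Of 20 stellate cell, fibroblast and endothelial markers, all on the array, 18 were tested and 15 were lower in CF (median log2 difference -0.53), with summed intensities of 17330 to 24814 in controls and 13656 to 17192 in CF. All 7 tested adipocyte markers of 14 listed were lower (median -1.18), with sums of 5688 to 20014 and 4497 to 6506. Of 18 duct markers, 13 were tested and 11 were higher (median 0.34), with sums of 63766 to 77047 and 67548 to 81227. Pdgfrb and Vwf, Pparg and Krt7, which help to define these cells, were too dim to test. Of 20 lymphocyte markers 9 were tested and 8 were lower (median -0.52, sums 6808 to 12574 and 3965 to 8232), while Cd3d, Cd3g, Cd8a and Ptprc were too dim. Of 18 macrophage and granulocyte markers 12 were tested and 9 were lower (median -0.77, sums 12245 to 18929 and 11696 to 14154), with Adgre1 and Itgam too dim. Acinar markers were lower in 11 of 13 (median -0.16, sums 856073 to 1167602 and 806252 to 920980). Islet markers were split 4 to 4 (median 0.01, sums 19232 to 77748 and 22446 to 59505). None of the 80 tested entries of these lists passed the test (limma, adjusted p under 0.05), against 0.0517% of all named genes (3 of 5804), and 19 had an unadjusted p under 0.05, against 7.49%. The part of any of these cells in the values of the cell cycle genes was not tested, and fewer cells of a type and less RNA per cell cannot be told apart in whole tissue.

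Ccna2, for cyclin A2, was measured with similar group means. Its probe set (99186_at) gave 1164, 1528 and 791.6 in controls and 913.6, 1627 and 1167 in CF, and the groups overlapped throughout. Replicate 2 was the highest array of each group. Means were 1161 ± 368 and 1236 ± 362 (SD, n = 3), a log2 difference of 0.10 ± 0.29 SE (95% interval -0.57 to 0.77, limma adjusted p = 0.96). That interval spans differences in either direction, and 3 arrays per group do not settle which of them, if any, is present.

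Cdk1, the kinase that cyclins A2 and B1 activate, was too dim to test (100128_at). Control arrays read 65.4, 62.8 and 45.3 and CF arrays 100.7, 53.6 and 49.5. CF replicate 1 was the highest, still below the filter. Mki67, for Ki-67, has 2 probe sets, and the one designed on a named mRNA (99457_at, X82786) stayed under the floor of 47.6 on all 6 arrays. Control replicates read 8.8, 37.1 and 17.9, CF replicates 15.7, 17.5 and 11. The other (161931_r_at) measured 224.4, 179.8 and 151.8 in controls and 71.3, 115.1 and 179.8 in CF. It passed the filter on 4 arrays, the 3 controls and CF replicate 3, so its difference may follow in part from the filter. The control values were mostly higher, but CF replicate 3 equalled control replicate 2. The log2 difference was -0.68 ± 0.48 SE (95% interval -1.78 to 0.41, limma adjusted p = 0.81), and it was -0.35 without CF replicate 1 and -0.26 with the floor raised to the 40th percentile. Cdk1 and Mki67 therefore gave no measure of cycling cells beyond these dim values.

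Mcm2 and Mcm5 encode subunits of the replicative helicase. Mcm2 (93112_at) measured 233.6, 82.7 and 191.3 in controls and 256, 221.6 and 182.3 in CF, with a log2 difference of 0.50 ± 0.46 SE (95% interval -0.56 to 1.55, limma adjusted p = 0.87). The brighter Mcm5 probe set (100156_at) measured 402.3, 75.6 and 291.7 in controls and 505.4, 326.1 and 191.2 in CF, with a log2 difference of 0.61 ± 0.63 SE (95% interval -0.83 to 2.05, limma adjusted p = 0.88). In both, control replicate 2 was far below the other 5 arrays and CF replicate 1 the highest, and the groups overlapped. Without control replicate 2, the differences were 0.04 for Mcm2 and -0.12 for Mcm5. That array also had the highest Gapdh 3'/5' ratio, which reflects RNA integrity, at 1.45 against 0.72 to 0.87 on the others. Its Actb 3'/5' ratio, 2.16, was close to the 2.14 of CF replicate 2, where Mcm2 and Mcm5 were not low. The part of RNA quality in the Mcm values was not tested.

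The log2 values of Mcm2 and Mcm5 correlated at r = 0.97 over the 6 arrays (Spearman's rho 1). They correlated at r = 0.95 without control replicate 2 and at r = 0.91 over 4 arrays without control replicate 2 and CF replicate 1, the farthest from the Mcm2 median. Among 6900 named probe sets of other genes, Mcm5 stood 12th in likeness to Mcm2, and 161 reached r above 0.9, so high values are common with 6 arrays. The most alike were Lpcat3 and B4galt2, both at r = 0.997, and Ndufc2 at 0.990. The second Mcm5 probe set (162102_r_at) followed neither, with r = 0.30 against its own gene's brighter probe set. It measured 108.5, 137.9 and 216.7 in controls and 181.4, 300.8 and 79.9 in CF (log2 difference 0.14 ± 0.57 SE, limma adjusted p = 0.97), with CF holding both the highest and the lowest array.

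Pcna, the polymerase clamp, had a single probe set (101065_at). It measured 629.1, 475.7 and 918.2 in controls and 584.8, 651.5 and 825.5 in CF. Replicate 3 was the highest array in each group, and the CF values lay inside the control range. Means were 674 ± 225 and 687 ± 124 (SD, n = 3), a log2 difference of 0.07 ± 0.28 SE (95% interval -0.57 to 0.70, limma adjusted p = 0.97).

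**Figure D3:**
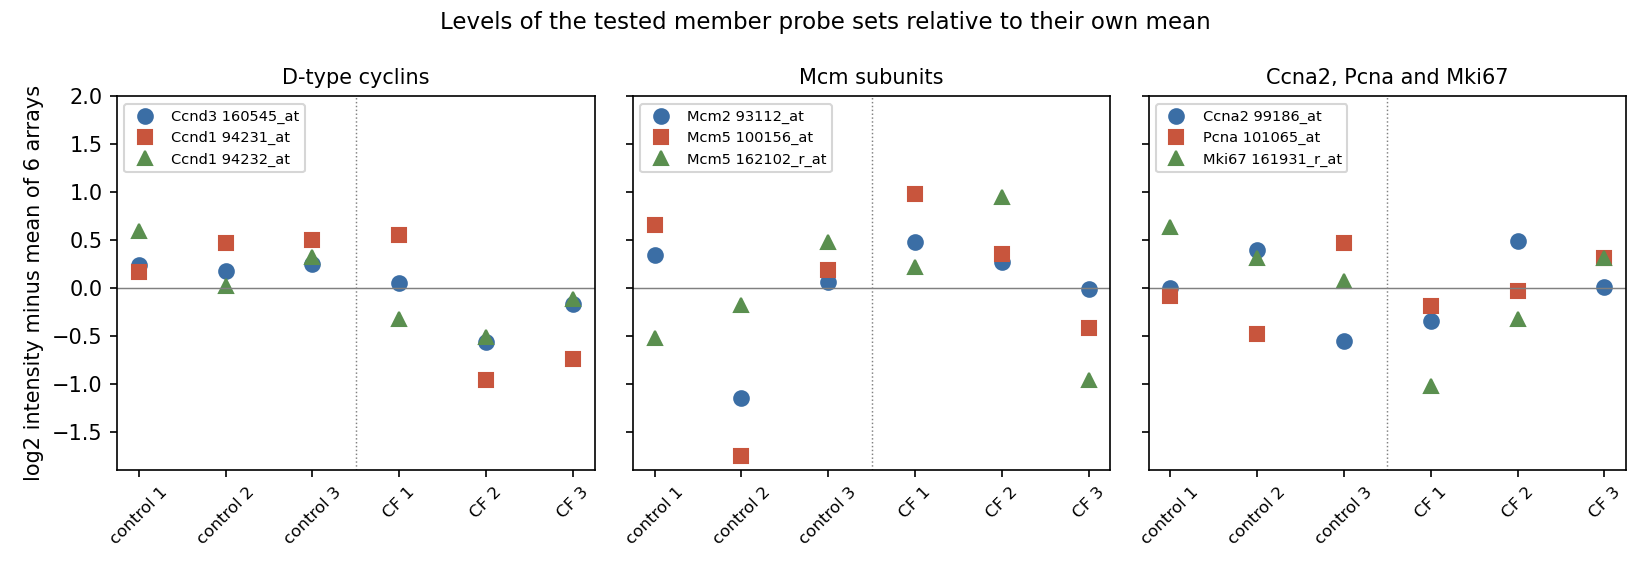
Log2 intensity (floored at 47.6) of the 9 tested member probe sets on each of the 6 arrays, minus each probe set's own mean, in 3 panels by role, with a dotted line between control and CF arrays; the order of replicates carries no meaning. The D-type cyclins are mostly above 0 in controls and below it in CF, while Mcm2 and Mcm5 100156_at share a low value in control replicate 2.

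How the spread divides differed between members. For Pcna, 79.6% of the sum of squares of the log2 values lay between title suffixes and 1.1% between genotypes. For Ccna2 the shares were 72.9% and 1.9%. Over all tested probe sets the medians were 47.3% for the suffix and 14.4% for genotype. The suffix has more levels than genotype, so its share tends to be larger even where neither has an effect. The size of these shares is therefore not a measure of which matters more. The suffix share was the larger in 72.4% of all tested probe sets. For Ccnd3 the order was the other way, with 24.7% for the suffix and 59.7% for genotype, and for the first Ccnd1 probe set it was 21.8% and 70.6%. The second Ccnd1 probe set (18% and 38.1%) and the tested Mki67 probe set (8.5% and 40.1%) had that order too. The second Mcm5 probe set had 79.5% in neither. What the suffix stands for is not given in the labels. With it as a block, limma gave an adjusted p of 0.36 for Ccnd3 and 0.37 for the first Ccnd1 probe set, the lowest among the members (0.36 to 1.00 over the alternatives for Ccnd3 and 0.37 to 1.00 for Ccnd1).

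By the correlation of log2 values over the 6 arrays, Ccnd3 was closest to Tmpo and Man2a1 (both r = 0.994) and Sprr2e (0.988). Pcna was closest to Ubqln2 (0.997), Ccna2 to Syt2 (0.987), the Mki67 probe set to Tln1 (0.986) and Mcm5 to Araf (0.993). Ccnd1, by its second and brighter probe set, was closest to Entpd6 (0.989). Each of these members had 50 to 106 named probe sets above r = 0.9.

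The wider cell cycle machinery was read from 4 lists that leave out the members, with 1 probe set per gene, the brightest tested. No gene of the lists passed (limma, adjusted p under 0.05), against 0.0517% of all named genes (3 of 5804), and 11 of 80 tested entries had an unadjusted p under 0.05, against 7.49% of all named genes. Among 15 tested cyclins, CDKs and associated genes of 23 listed, 12 were higher and 3 lower in CF (median log2 difference 0.26, against 0.00 over all named genes). This list was not limited to genes that drive the cycle. Cdk9, Ccnt1, Cdk5 and Cdk2ap1 are on it and among the 12, so the split is not a measure of cycling. In 4 of the 15 the CF values all lay above the controls, beside 7.37% of all probe sets. Cks1b, a small CDK-binding subunit that helps degrade p27, measured 305.8, 131.6 and 282.7 in controls and 734.1, 589.4 and 422.4 in CF (1.33 ± 0.38 SE, limma adjusted p = 0.43). Ccne1, for cyclin E1, which takes cells into S phase with CDK2, measured 406.9, 438.6 and 322.8 in controls and 518.5, 679.3 and 598.3 in CF (0.62 ± 0.23 SE, adjusted p = 0.62). Ccng2, a cyclin linked to cell cycle arrest, differed by 0.77 ± 0.33 SE. The fourth, Cdc25a, a phosphatase that activates CDKs and is named here after its values were seen, differed by 0.32 ± 0.16 SE. Another Cdc25a probe set was too dim to test. Thus Ccnd1 and Ccnd3 were lower in value and Ccne1 higher, with none past the threshold.

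Among 13 tested CDK inhibitors, pocket proteins, E2F and Myc factors of 25 listed, 5 were higher and 8 lower (median -0.08). Foxm1, the transcription factor of mitotic genes, measured 588.6, 613.2 and 778.4 in controls and 325, 223.1 and 544.8 in CF (-0.94 ± 0.34 SE, limma adjusted p = 0.58). Its other probe set was too dim to test. Mycl, a Myc family factor, measured 118.1, 169.2 and 100 in controls and 415.6, 229.1 and 203.6 in CF (1.09 ± 0.42 SE). It passed the filter on 4 arrays, the CF arrays and control replicate 2, so its difference may follow in part from the filter. Cdkn2a, the locus of the p16 and p19ARF inhibitors, differed by -0.54 ± 0.30 SE with overlapping groups (-0.82 without CF replicate 1 and -0.25 without CF replicate 2). Rbl1, the pocket protein p107, also lay lower without overlap (-0.47 ± 0.31 SE), named after its values were seen.

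Of 28 tested replication and nucleotide synthesis genes of 50 listed, 14 were higher and 14 lower (median 0.04). The leading gene was Dck, the kinase that salvages deoxynucleosides, with controls at 871.6, 1154 and 1077 and CF arrays at 440, 428.5 and 625.9 (-1.07 ± 0.23 SE, limma adjusted p = 0.20). Rfc2, a clamp loader subunit that places PCNA on DNA, differed by -0.51 ± 0.18 SE, and Pola2, of the polymerase that starts new strands, by -0.39 ± 0.19 SE. These 3 genes and the licensing genes Cdt1 (-0.44 ± 0.22 SE) and Orc1 (-0.42 ± 0.26 SE), the last pair named after their values were seen, lay lower without overlap, beside 5.62% of all probe sets. For Pola2 the lowest control, 2117, and the highest CF value, 2114, nearly met. Dck and Pola2 each have another probe set, which was too dim to test. The difference was -0.24 for Pola2 without control replicate 2 and -0.26 for Cdt1 without CF replicate 3. A second Cdt1 probe set entered the test through its 3 control values alone (232.1, 408.7 and 255.3, against 110.1, 132.9 and 110.8 in CF), so its difference of -1.30 ± 0.38 SE follows in part from the filter. Fen1 (0.53 ± 0.38 SE) and Rfc3 (0.40 ± 0.35 SE), named in the same way, lay higher without overlap. They are 2 of the 28 genes, a share near the 7.37% of all tested probe sets. Fen1 differed by 0.29 without control replicate 2.

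Of 24 tested genes of mitosis and its checkpoints of 53 listed, 10 were higher and 14 lower (median -0.04). H2az1, a histone variant, measured 1453, 1178 and 1717 in controls and 693.7, 685.3 and 1103 in CF (-0.83 ± 0.24 SE, limma adjusted p = 0.44). Plk1, a kinase of mitotic entry, differed by -0.59 ± 0.19 SE on its brightest probe set but by -0.01 ± 0.26 SE on another. Ect2, which starts cytokinesis, differed by 1.60 ± 0.56 SE. It entered the test through its 3 CF values alone (167.4, 251.6 and 158, against 106.2, 32.4 and 18.5 in controls), so its difference follows in part from the filter, and it was 0.42 with the floor raised to the 40th percentile. Another 19 genes of this list, among them Aurka, Aurkb, Bub1 and Birc5, were too dim to test, as were 17 of the replication list. Top2a is on both of these lists.

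**Figure D4:**
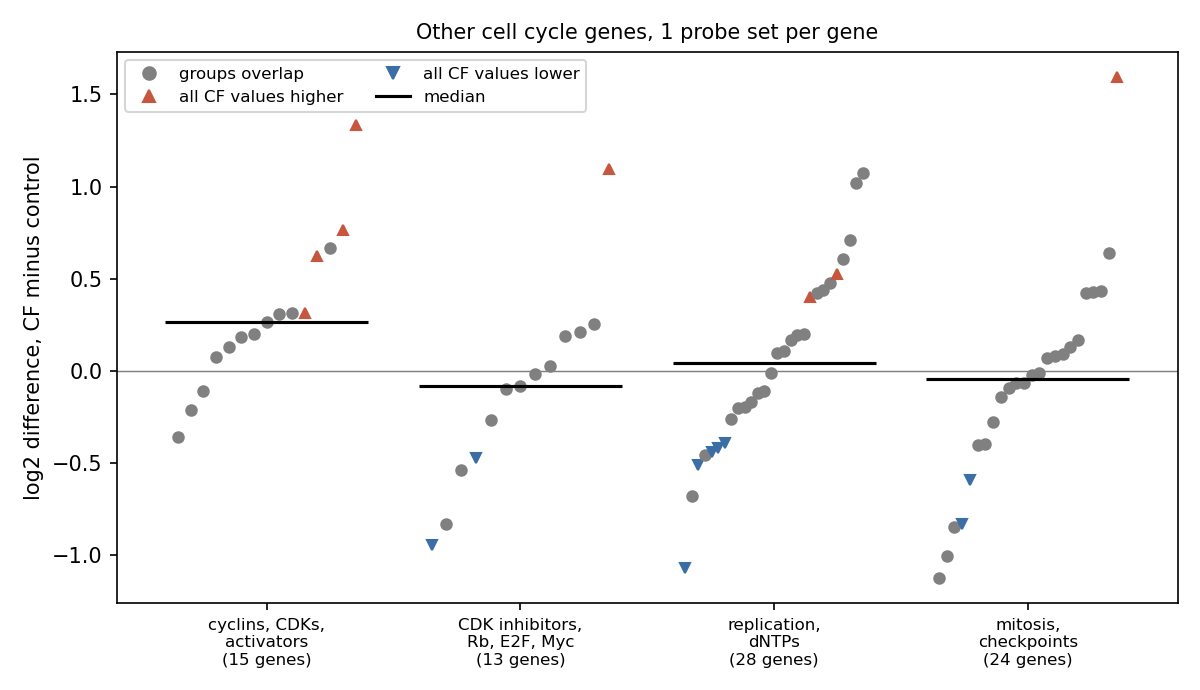
Log2 difference, CF minus control, of each tested gene of the 4 lists (1 probe set per gene, ordered by value), with the median of each list as a black bar; red triangles mark genes whose CF values all lie above the controls, blue triangles those whose CF values all lie below, and grey points overlapping groups. The cyclin and CDK list has its median at 0.26 and the other 3 lists lie between -0.08 and 0.04.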

How the data were processed

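The deposited intensities, 1 per probe set and array on a linear scale, were used as the authors scaled them: the mean without 2% of values at each end was 500.27 to 500.3 on every array. The software used for them is not known here. Groups came from the genotype in the labels. The 20th percentile of all arrays together (47.6) served as a floor before log2, so folds of dim genes are understated. Without the 66 control probe sets, 7739 probe sets with at least 3 of 6 arrays above the pooled 40th percentile (140.2) were fitted with no block by lmFit and trended eBayes (limma 3.58.1 under R 4.3.3). Benjamini-Hochberg adjustment ran over all of them, with a threshold of 0.05. Symbols came from the platform annotation, updated to RefSeq names by gene identifier (10839 of 10855 single-symbol probe sets matched).

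The members and gene lists were chosen with earlier results of these data known. The rule for named genes was all member probe sets, the 3 genes of smallest p in each list, and the 3 most correlated genes per member. Of these correlated genes, all 3 are given for Ccnd3 and Mcm2 and only the closest for the other tested members. Deviations from group means correlated at 0.23 to 0.26 between arrays of the same suffix and at -0.18 to -0.05 otherwise, so the fit with the suffix as a replicate block was run as an alternative, while the values given are from the fit without it unless named. Each array is 1 mouse per the labels. The fit was tested on simulated data. Alternatives covered scaling, floor, filter, variance model, array weights, block, threshold and leaving out each array.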

Additional observations from a re-analysis of the deposited data

How the results depend on the processing

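The count of 0 called member probe sets was the same in all 16 alternatives. That of 2 member probe sets without overlap was read from the deposited intensities, so only the filter or leaving out an array could change it. It stayed at 2 under the other filters. It was 2 when an array was left out, or 3 without CF replicate 1 or 3, where fewer arrays make overlap less likely. Over all probe sets the number called was 10 with the floor at the 40th percentile, 0 with no filter (773 of 12422 at an unadjusted limma p under 0.05), 3 with no intensity trend, 12 with array weights, 10 with the replicate block and 17 at a threshold of 0.1, and 1 to 11 when each array was left out. The members' median log2 difference was -0.44 with the filter at the 60th percentile, which left fewer probe sets, -0.07 (-0.075) with array weights, and -0.27 to 0.07 (-0.274 to 0.067) when each array was left out. The cause of these shifts was not tested. Ccnd3, both Ccnd1 probe sets, the tested Mki67 probe set and Mcm2 kept their sign under every alternative run. So did the list genes given above with a log2 difference, each by its brightest tested probe set. Other genes and probe sets of the lists were not followed through the alternatives. Pcna differed by -0.075 with array weights and by -0.16 to 0.31 (0.314) when each array was left out. The same ranges were -0.12 to 1.09 for Mcm5 100156_at (-0.117 to 1.089), -0.30 to 0.66 for Mcm5 162102_r_at (-0.298 to 0.658) and -0.15 to 0.32 for Ccna2. The replicate block changed no call among the named genes. Signals under the filter limit Ccnd2, Cdk1 and 1 Mki67 probe set.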
